A study of Mus musculus with 6 samples.

Results

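The genes described here make ribosomes and transcribe RNA. They are the rows of the deposited mouse table annotated by KEGG to ribosome biogenesis in eukaryotes or to RNA polymerase, without those that KEGG also places in nucleocytoplasmic transport or the spliceosome. The terms matched 77 rows, 7 were left out by the exclusion, and 70 of the 4656 rows in the table remained, 48 from ribosome biogenesis and 22 from RNA polymerase. By role, 3 belong to the box C/D particle, 4 to the box H/ACA particle, 22 to RNA polymerases I, II and III, and 41 to other processing factors.

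Messenger RNA libraries were made from primary microglia (brain-resident macrophages) of adult mice, 3 for each of 2 genotypes. Ctrl libraries came from Nus1fl/fl mice, whose Nus1 gene is flanked by recombination sites, and cKO libraries from Nus1cKO mice, in which it is conditionally deleted. The labels record the same tamoxifen course for every sample, 100 mg/kg into the peritoneum on 5 days at postnatal day 28, with brains taken 30 days after the last dose and microglia sorted by flow cytometry. A culture medium is also listed, and whether RNA came from cells kept in it is not stated. The sources used here do not give the Cre driver, whether Ctrl mice carried Cre, the sex, or whether animals were pooled. Nus1 encodes a subunit of the enzyme that makes dolichol, the lipid carrier of sugars for protein N-glycosylation.

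A cell builds ribosomes mainly in the nucleolus. RNA polymerase I transcribes the long precursor of the ribosomal RNAs, box C/D particles direct the addition of methyl groups to its riboses, and box H/ACA particles direct the conversion of uridines to pseudouridines. A large assembly called the small subunit processome folds and cuts the precursor, further GTPases and ATPases mature the large subunit, and RNA polymerase III supplies the smallest ribosomal RNA and the transfer RNAs. In macrophages, as in other cells, output of this machinery is known to follow growth and nutrient signals.

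The deposited table lists genes that passed the authors' threshold alone, 29.4% of the 15835 that they tested, so a gene without a row is of unknown level and change here. Rows that the authors called lower make up 15.7% of the tested genes and rows that they called higher 13.7%, by the authors' deposited table. In the present fit 4640 rows were tested with edgeR's quasi-likelihood test and all passed an adjusted p of 0.05 (100% called), so that passing the test sets no member apart. Of those rows 53.6% were lower and 46.4% higher in cKO. With scaling factors estimated from the rows themselves, 50.2% were lower with TMM, 40.3% with RLE and 37.3% with upper-quartile factors, and 2155 rows were higher with each. Reads in the rows summed to between 10786150 and 11033144 per library. Nus1 itself was at 59.8 ± 0.902 TPM (reads scaled for transcript length and library size) in Ctrl and 13.9 ± 0.252 in cKO (SD, n = 3 each), a log2 fold change of -2.14 ± 0.04 (SE). Of 12 microglia and macrophage markers 7 had a row, with summed levels of 737 to 747 TPM in Ctrl and 737 to 750 TPM in cKO. These close sums hold changes in both directions, as Itgam (0.69) and Ptprc (0.24) rose and Cx3cr1 (-0.57), Fcrls (-0.49), Trem2 (-0.16), Csf1r (-0.13) and Spi1 (-0.12) fell, in log2 fold change. The 8 neuron markers had 0 rows, and astrocyte, oligodendrocyte, and endothelial and mural markers had 1 row of 8 each, at summed levels of 0.34 to 0.42, 22.2 to 23.2 and 0.15 to 0.42 TPM in Ctrl and of 0 to 0.16, 25.9 to 27.96 and 0.51 to 0.78 TPM in cKO. Markers of border macrophages and monocytes had 2 rows of 8, at summed levels of 9.16 to 11.3 TPM in Ctrl and 4.6 to 5.5 TPM in cKO. The 2 went in opposite directions. Mrc1 fell (-1.19), and Ly6c2 was at 0 TPM in every Ctrl library and at 0.55 to 0.71 TPM in cKO, on 3 to 4 reads. The part of any of these cells in the results below was not tested.

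Transcripts of the ribosome-making machinery were lower in cKO in every role. Of the 70 members, 68 fell and 2 rose, where 53.6% of all rows were lower. The median log2 fold change was -0.29, beside -0.12 over all rows and -0.24 over the 2486 rows called lower. Members ranged from -0.80 for Pop5 to 0.25 for Xrn1, and 5 reached -0.5 or lower, 7.14% of them against 3.58% of all rows and 6.68% of the rows called lower, so this share is near that of lower rows. With TMM factors Rpp40 (-0.49) and Polr1e (-0.48) no longer reached it, nor did Tbl3 with RLE factors (-0.46). The summed level of the 70 transcripts was 8144, 8132 and 8168 TPM in the Ctrl libraries and 6666, 6872 and 6654 TPM in the cKO libraries. The groups did not overlap, and the ratio of the mean sums was 0.826. As the rows were chosen by the authors' test on these same libraries, this separation of sums adds no support of its own. In bulk libraries, a smaller share of cells expressing these genes and less RNA per cell cannot be told apart.

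**Figure D1:**
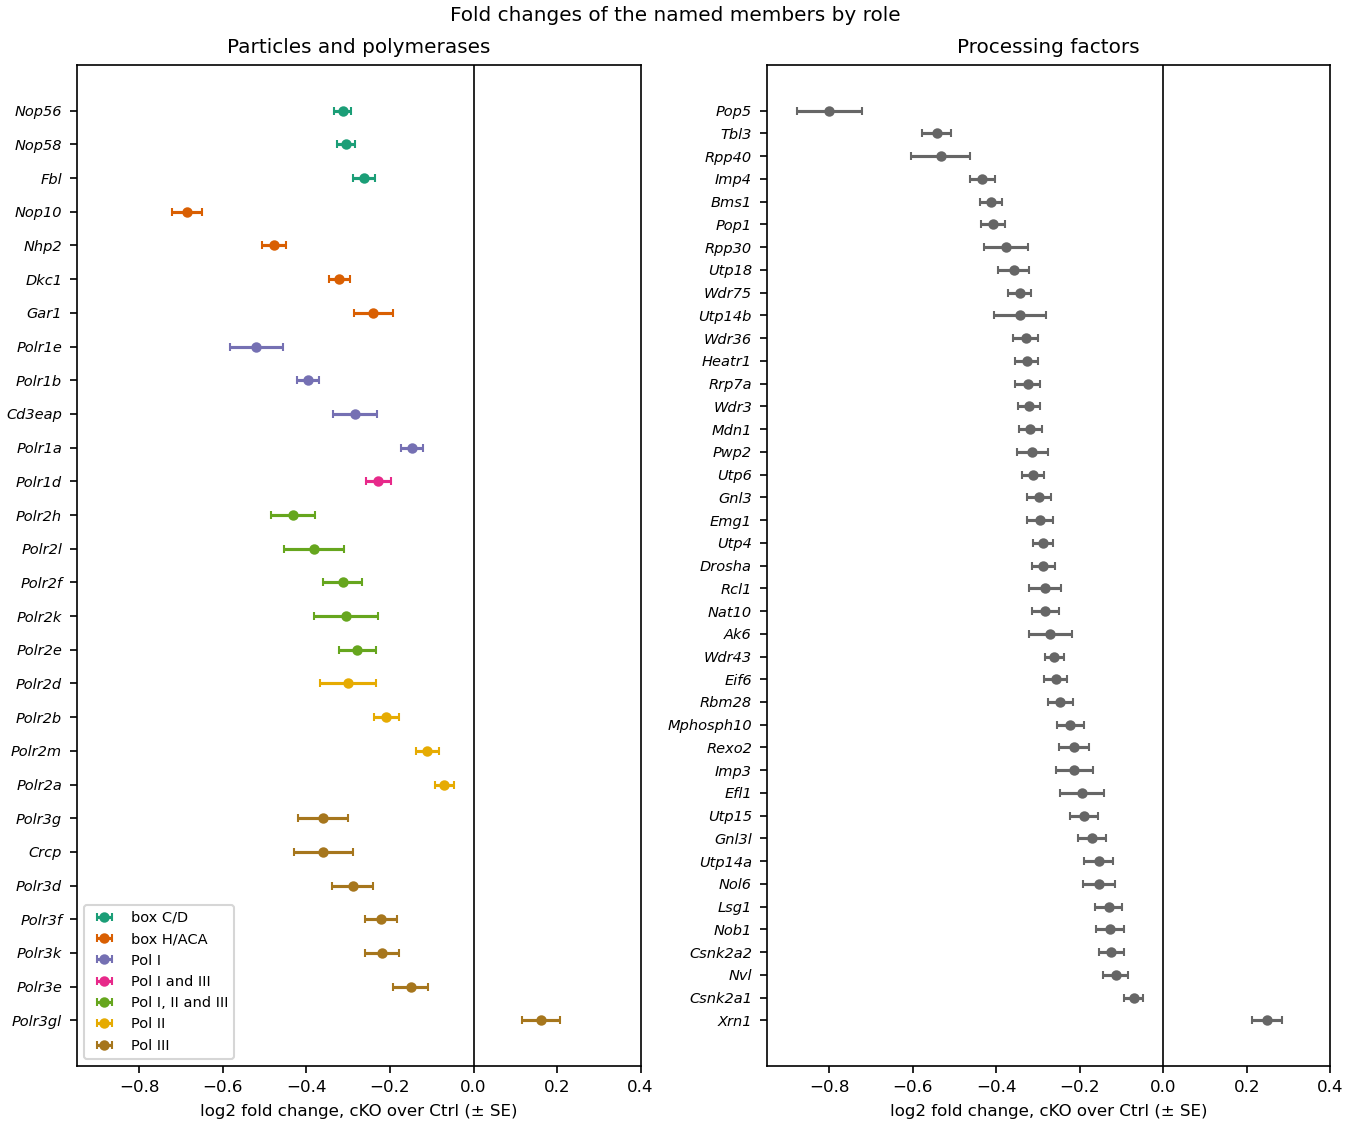
Log2 fold changes (cKO over Ctrl, horizontal axis) with SE bars for the members named in the text, particles and polymerases on the left coloured by role and processing factors on the right sorted by value. All but Polr3gl (0.16) and Xrn1 (0.25) lie left of 0, and Pop5 (-0.80) and Nop10 (-0.69) lie farthest left.

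Nop10 and Nhp2 of the box H/ACA particle had the lowest fold changes among the 7 particle proteins, and the 4 box H/ACA transcripts fell by unequal amounts. All 4 core proteins had a row and all 4 fell, with a median of -0.40. Nop10, the small protein that holds the catalytic subunit and the RNA-binding subunit together, was at 383, 400 and 396 TPM in Ctrl (399.9 in replicate 2) and at 254, 252 and 244 TPM in cKO. Every cKO library lay far below every Ctrl library, and the log2 fold change was -0.69 ± 0.04 (SE, adjusted p = 1.4e-19). Nhp2, the RNA-binding subunit, was at 473, 477 and 472 TPM in Ctrl and at 336, 362 and 345 TPM in cKO. Its log2 fold change was -0.48 ± 0.03 (adjusted p = 7.4e-18), again without overlap. Such separation was common: every Ctrl library was above every cKO library in TPM in 51.7% of all rows and below in 46%.

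Dkc1, which encodes the pseudouridine synthase dyskerin, was at 135, 134 and 132 TPM in Ctrl and at 107, 108 and 110 TPM in cKO. The groups were apart, but the change, -0.32 ± 0.03 (SE), was smaller than that of Nop10. Gar1, which helps the particle bind and release its target, was at 79.8, 75.9 and 73.4 TPM in Ctrl and at 65.4, 65.6 and 66.9 TPM in cKO, with a change of -0.24 ± 0.05. Within a library, the ratio of Nop10 to Dkc1 in TPM was 2.84, 2.99 and 3.003 in Ctrl and 2.36, 2.33 and 2.22 in cKO. Nhp2 to Dkc1 went from 3.55 ± 0.0413 to 3.20 ± 0.123 and Gar1 to Dkc1 from 0.572 ± 0.0178 to 0.607 ± 0.00192 (SD, n = 3 each). None of these 3 ratios overlapped between the groups, though narrowly for Gar1 to Dkc1 (Ctrl up to 0.592, cKO from 0.605). How often ratios of other gene pairs overlap was not tested, so a change in proportions is not established. The particle also binds telomerase RNA, which a table of messenger RNAs does not measure.

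**Figure D2:**
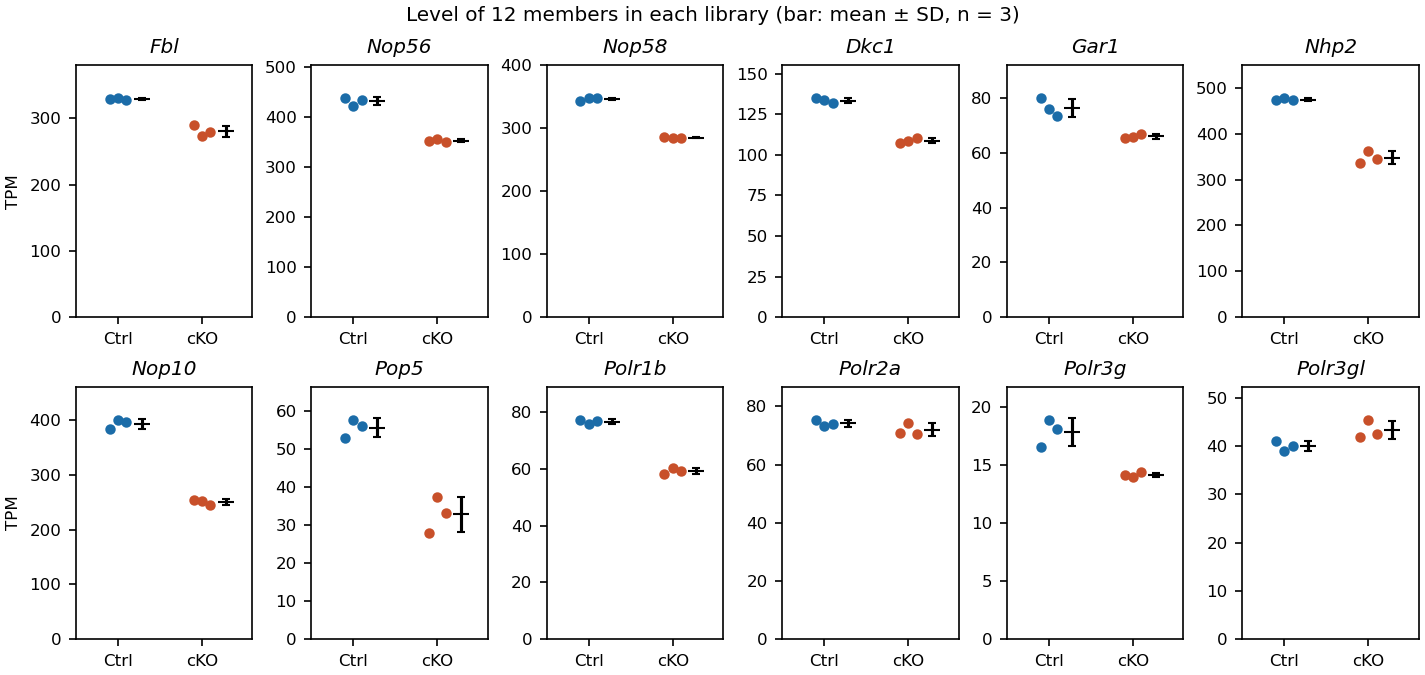
Level in TPM (vertical axis, from 0) of 12 members in the 3 Ctrl and 3 cKO libraries, with mean ± SD beside the points. Nop10 and Pop5 show the widest gaps between groups, Polr2a overlaps between them, and Polr3gl lies higher in cKO.

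Of the box C/D core proteins, Fbl, Nop56 and Nop58 are members, and all 3 fell, with log2 fold changes from -0.31 to -0.26. Nop56, one of the paired scaffold proteins, was at 438, 423 and 435 TPM in Ctrl and at 352, 357 and 350 TPM in cKO (349.6 in replicate 3). Its partner Nop58 was at 344, 348 and 347 TPM in Ctrl and at 286, 284 and 285 TPM in cKO. Fibrillarin (Fbl), the methyltransferase, was at 329, 330 and 327 TPM in Ctrl (330.2 in replicate 2) and at 289, 273 and 279 TPM in cKO. No Ctrl library overlapped a cKO library for any of them, as was common over all rows (Ctrl above in 51.7%, below in 46%). The changes were -0.31 ± 0.02 for Nop56, -0.31 ± 0.02 for Nop58 and -0.26 ± 0.03 for Fbl (SE), the last with an adjusted p of 9.0e-11. The ratio of Nop56 to Fbl overlapped between the groups, at 1.31 ± 0.0286 in Ctrl and 1.26 ± 0.0467 in cKO (SD, n = 3 each), while that of Nop58 to Fbl did not, at 1.05 ± 0.00817 and 1.02 ± 0.0276. As with box H/ACA, ratios of other gene pairs were not examined for overlap, so no change in proportions is established.

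Snu13, the protein that recognises the bend in box C/D RNAs, is left out of the 70 because it also belongs to the spliceosome. It fell by 0.41 on the log2 scale, more than the box C/D members, from 409 ± 5.32 to 315 ± 3.49 TPM. The ratio of Snu13 to Fbl went from 1.25 ± 0.0149 to 1.12 ± 0.0357 (SD, n = 3 each) without overlap, under the same limit as the other ratios. Of the other 6 excluded rows, the export factors Ran, Xpo1, Nxf1, Nxt1 and Nmd3 fell by 0.18 to 0.37, and Nxf7 rose by 0.77.

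RNA polymerase I, which transcribes the ribosomal RNA precursor, fell in 4 of 4 subunits of its own that had a row, with a median of -0.34. Polr1e, of the subunit pair found in this enzyme alone, was at 13.4, 13.2 and 12.9 TPM in Ctrl and at 9.48, 8.87 and 9.65 TPM in cKO, a change of -0.52 ± 0.06 (SE, adjusted p = 4.6e-09). Its partner Cd3eap, also called Polr1g, changed by -0.28 ± 0.05, from 29.7 to 24.8 TPM on average. Polr1b, the second-largest catalytic subunit, was at 77.4, 75.8 and 77.0 TPM in Ctrl and at 58.25, 60.4 and 59.4 TPM in cKO. Its change was -0.40 ± 0.03 (adjusted p = 3.6e-16). The largest subunit, Polr1a, changed less, by -0.15 ± 0.03, with Ctrl at 50.8, 49.6 and 50.3 TPM and cKO at 46.5, 46.1 and 46.1 TPM; its call ended with upper-quartile scaling (-0.06, adjusted p = 0.111). For none of the 4 did the groups overlap in TPM, which sets them apart from few rows (Ctrl above in 51.7% of all rows, below in 46%).

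Polr1d, a small assembly subunit that polymerases I and III share, was more abundant than any subunit of polymerase I alone that had a row. It was at 486, 454 and 472 TPM in Ctrl against 401, 437 and 390 TPM in cKO (390.4 in replicate 3). Its change was -0.23 ± 0.03 (SE). The 5 subunits common to all the enzymes had a row each, and all 5 fell, where 53.6% of all rows were lower. Their changes lay between -0.43 and -0.28 with a median of -0.31. Polr2h changed by -0.43 ± 0.05, Polr2l by -0.38 ± 0.07, Polr2f by -0.31 ± 0.05, Polr2k by -0.31 ± 0.08 and Polr2e by -0.28 ± 0.04. Polr2f was the most abundant, at 482 ± 14.5 TPM in Ctrl and 398 ± 21.9 TPM in cKO, and Polr2l the least, at 24.9 ± 1.58 and 19.5 ± 1.72 TPM.

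In scaled counts, cKO replicate 2 was the cKO library nearest to Ctrl for all 5 shared subunits. Polr2k was at 199, 196 and 188 TPM in Ctrl and at 154, 175 and 150 TPM in cKO (150.4 in replicate 3). Its scaled counts overlapped between the groups, although its TPM values did not. Without cKO replicate 2 the median of the 5 was -0.44. Over all 70 members this library did not stand apart: the median log2 ratio to the Ctrl mean was -0.29, -0.28 and -0.29 in cKO replicates 1, 2 and 3, and 68 members lay below the Ctrl mean in each.

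**Figure D3:**
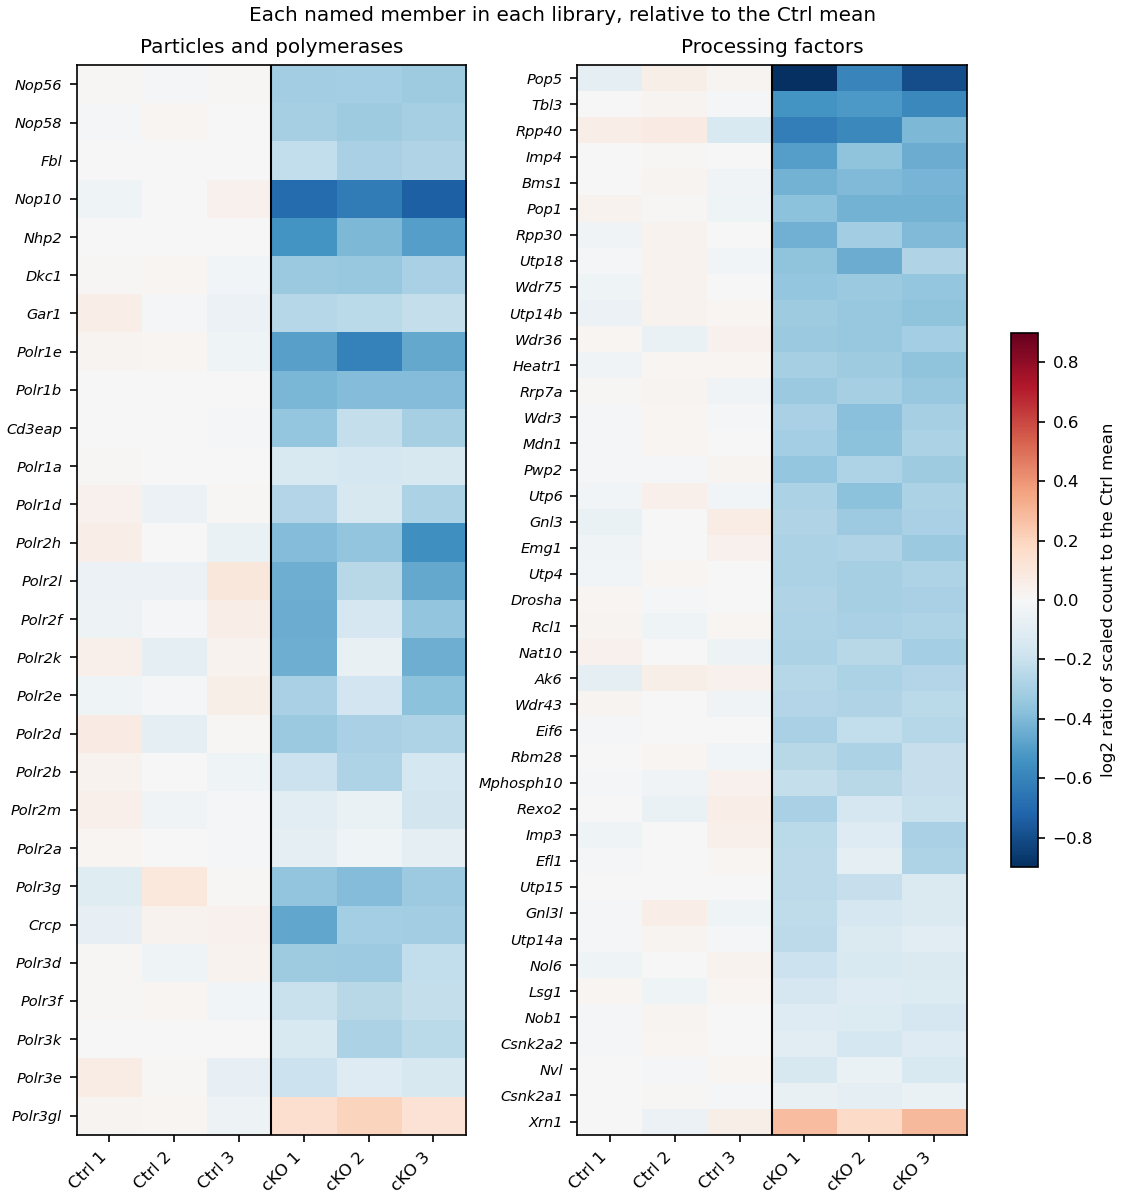
Log2 ratio of each named member's scaled count to its Ctrl mean (colour, blue lower and red higher) in the 6 libraries, particles and polymerases on the left and processing factors on the right. The cKO columns are blue but for the rows of Polr3gl and Xrn1, and cKO replicate 2 is paler for Polr2f, Polr2k and Polr2e.

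RNA polymerase II, which makes messenger RNA precursors, had the smallest median of the enzymes, -0.16 over 4 subunits or bound factors with a row. Polr2d, of the stalk that emerging RNA passes, was at 50.8, 45.6 and 48.3 TPM in Ctrl and at 39.5, 40.05 and 40.7 TPM in cKO, a change of -0.30 ± 0.07 (SE). Polr2b, the second-largest catalytic subunit, changed by -0.21 ± 0.03, from 70.5 ± 1.73 to 62.1 ± 1.93 TPM. Polr2m, a regulatory protein bound to the enzyme, was at 160.5 ± 5.16 TPM in Ctrl and 152 ± 6.59 TPM in cKO. Polr2a, the largest catalytic subunit, was at 75.4, 73.1 and 74.0 TPM in Ctrl and at 70.8, 74.5 and 70.5 TPM in cKO.

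Polr2a and Polr2m overlapped between the groups in TPM, and their log2 fold changes were -0.07 ± 0.02 and -0.11 ± 0.03 (SE). The call of Polr2a ended with TMM factors from the rows (-0.03, adjusted p = 0.707), and its value turned to 0.0079 under RLE and 0.018 under upper-quartile factors. Leaving out Ctrl replicate 1 ended it too (adjusted p = 0.0926), as did leaving out the first cKO replicate (0.0599) or the third (0.0796). Polr2m lost its call with TMM factors too (-0.07, adjusted p = 0.0629), which left 2 of the 4 called and moved the median to -0.12; RLE moved it to -0.081 and upper-quartile scaling to -0.071.

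RNA polymerase III, which makes transfer RNAs and the smallest ribosomal RNA, fell in 7 of 8 subunits with a row and rose in 1. Over all rows 53.6% were lower. The median of the 8 was -0.26 (-0.17 under upper-quartile scaling). Crcp, of the enzyme's stalk, was at 27.7, 29.7 and 29.9 TPM in Ctrl and at 21.5, 24.05 and 23.9 TPM in cKO, without overlap, and changed by -0.36 ± 0.07 (SE). Polr3d and Polr3e, which pair with each other, changed by -0.29 ± 0.05 and -0.15 ± 0.04, Polr3f, of the initiation subcomplex, by -0.22 ± 0.04, and Polr3k, which acts in termination, by -0.22 ± 0.04. The call of Polr3e ended without Ctrl replicate 1 (-0.12, adjusted p = 0.066), with RLE factors (-0.07, adjusted p = 0.329), with upper-quartile factors (-0.06, adjusted p = 0.532) and for limma on log2(FPKM + 1) values (-0.11, adjusted p = 0.0682).

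The member that rose, Polr3gl, is the paralog of Polr3g, and an enzyme holds one or the other. Polr3g was at 16.6, 18.9 and 18.1 TPM in Ctrl (18.05 in replicate 3) and at 14.1, 13.99 and 14.35 TPM in cKO, a change of -0.36 ± 0.06 (SE, adjusted p = 2.6e-06). Polr3gl was at 41.1, 39.0 and 40.1 TPM in Ctrl and at 41.9, 45.5 and 42.6 TPM in cKO, a change of 0.16 ± 0.04 (adjusted p = 0.0031). Both pairs of groups were apart, if narrowly for Polr3gl. The ratio of Polr3g to Polr3gl was 0.403, 0.483 and 0.450 in Ctrl (0.4499 in replicate 3) and 0.337, 0.308 and 0.337 in cKO. Over 4 paralog pairs compared, the exact permutation p (two-sided) of this ratio was 0.1, the smallest that 3 libraries a group allow. The exact permutation p was also 0.1 for Utp14a to Utp14b, whose ratio was 6.39 ± 0.153 in Ctrl and 7.28 ± 0.456 in cKO (SD, n = 3 each). For Gnl3 to Gnl3l it was 0.3 and for Csnk2a1 to Csnk2a2 0.7, by the same exact test, and these ratios overlapped. Reads of paralogs can be shared, which makes the separate values of each pair less certain.

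Among the processing factors, the proteins of RNase MRP and RNase P, enzymes that cut the ribosomal RNA precursor and transfer RNA precursors, had the lowest median, -0.47. Of 11 such proteins listed, 4 were members, and all 4 fell, where 53.6% of all rows were lower. Pop5 was at 52.7, 57.55 and 56.04 TPM in Ctrl and at 27.9, 37.3 and 32.99 TPM in cKO. The cKO libraries were spread apart, and all lay below Ctrl; the change was -0.80 ± 0.08 (SE, adjusted p = 2.3e-11). Rpp40 was at 39.5, 37.1 and 33.2 TPM in Ctrl and at 24.6, 24.96 and 29.5 TPM in cKO, a change of -0.53 ± 0.07. Pop1, the large scaffold protein of both enzymes, changed by -0.41 ± 0.03, from 87.8 ± 2.06 to 67.5 ± 1.29 TPM, and Rpp30 by -0.38 ± 0.05, from 69.8 ± 1.55 to 54.8 ± 2.09 TPM.

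The subcomplexes of the small subunit processome fell as well, and the counts below stand beside 53.6% lower over all rows. The UTP-B complex had a row for all 6 of its proteins, and all 6 fell, between -0.54 and -0.31. Tbl3 was at 66.4, 66.8 and 65.8 TPM in Ctrl and at 46.4, 47.7 and 45.04 TPM in cKO, far apart, with a change of -0.54 ± 0.04 (SE, adjusted p = 1.3e-16). Utp18 changed by -0.36 ± 0.04, and the other 4 lay close together, Wdr36 at -0.33, Wdr3 at -0.32, Pwp2 at -0.31 and Utp6 at -0.31. The UTP-A complex, which also takes part in transcription of the precursor, fell in 5 of 5 members, from Wdr75 at -0.34 and Heatr1 at -0.33 through Utp4 at -0.29 and Wdr43 at -0.26 to Utp15 at -0.19. In the Mpp10 complex Imp4 changed by -0.43 ± 0.03, from 138 ± 0.524 to 104 ± 5.48 TPM, beside Mphosph10 at -0.22 and Imp3 at -0.21.

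The UTP-C group was split. Rrp7a changed by -0.33 ± 0.03 and Nol6 by -0.16 ± 0.04 (SE), while the catalytic subunits of casein kinase 2, which serve many pathways, changed least, Csnk2a2 by -0.12 ± 0.03 and Csnk2a1 by -0.07 ± 0.02. Csnk2a1 was at 118, 117 and 117 TPM in Ctrl and at 113, 114 and 114 TPM in cKO, and its call ended with TMM factors (-0.03, adjusted p = 0.634). It stood at 0.0070 under RLE and 0.017 under upper-quartile factors. Csnk2a2 overlapped between groups in TPM, and its call ended with RLE factors (-0.05, adjusted p = 0.424) and for limma on log2(FPKM + 1) values (-0.03, adjusted p = 1). Nol6 lost its call with RLE factors (adjusted p = 0.194).

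Of 8 other factors of the small subunit, all 8 fell, where 53.6% of all rows were lower. The GTPase Bms1 was at 77.6, 77.5 and 76.05 TPM in Ctrl and at 57.9, 60.2 and 58.4 TPM in cKO (57.95 in replicate 1), a change of -0.41 ± 0.03 (SE, adjusted p = 8.1e-17). The methyltransferase Emg1 changed by -0.30, Rcl1 by -0.28, the acetyltransferase Nat10 by -0.28 and the adenylate kinase Ak6 by -0.27. Utp14b, a retrotransposed copy of Utp14a, changed by -0.34 and Utp14a by -0.16. Nob1, the nuclease of the last cut in the small subunit RNA, changed by -0.13 ± 0.03, from 109 ± 1.11 to 101.3 ± 1.63 TPM. Utp14a and Nob1 lost their calls with RLE factors (adjusted p = 0.109 and 0.497).

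Of 8 factors of large subunit maturation all 8 fell, where 53.6% of all rows were lower. Their median was -0.22, beside -0.24 over the rows called lower. The giant ATPase Mdn1, which strips assembly factors from the particle, was at 15.4, 15.4 and 15.5 TPM in Ctrl and at 12.6, 12.4 and 12.8 TPM in cKO, a change of -0.32 ± 0.03 (SE). The nucleolar GTPase nucleostemin (Gnl3) changed by -0.30, Eif6, which keeps the subunits apart, by -0.26, Rbm28 by -0.25, Efl1, which releases Eif6, by -0.19 and Gnl3l by -0.17. The GTPase Lsg1 changed by -0.13 ± 0.03 and the ATPase Nvl by -0.11 ± 0.03. Nvl overlapped between groups in TPM and lost its call with TMM factors (-0.07, adjusted p = 0.0735). Efl1 and Lsg1 lost theirs with RLE factors (adjusted p = 0.119 and 0.390) and Gnl3l with upper-quartile factors (adjusted p = 0.071).

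Nucleases with wider roles differed in direction. Drosha, which also cuts microRNA precursors, changed by -0.29 ± 0.03 (SE), and Rexo2, which degrades short RNAs mainly in mitochondria, by -0.21 ± 0.04. Xrn1, the main cytoplasmic exonuclease of messenger RNA decay, rose by 0.25 ± 0.04 (adjusted p = 2.5e-07). It was at 13.7, 13.01 and 14.3 TPM in Ctrl and at 16.6, 15.8 and 17.0 TPM in cKO (16.98 in replicate 3), without overlap.

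Every Ctrl library was above every cKO library in TPM for 64 of the 70 members, and the reverse held for Polr3gl and Xrn1. Over all rows these shares were 51.7% and 46%. The 4 members that overlapped, Polr2a, Polr2m, Csnk2a2 and Nvl, had changes between -0.12 and -0.07. Levels in Ctrl ran from 11.9 TPM for Utp14b to 482 TPM for Polr2f. Across the 70 genes, Spearman's rho between the log2 fold change and the Ctrl level was -0.06, and with reads per TPM, a measure of effective transcript length, it was 0.27; for the 2486 lower rows these were 0.23 and 0.16. These are descriptions across genes of the same 6 libraries. The members lie on 19 chromosomes, with at most 8 on one of them (chromosome 2, which holds Nop10 and Polr1b).

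Most genes of ribosome assembly that the KEGG terms do not take were lower too. Of 141 symbols listed, synonyms included, 106 had a row, of which 98 fell and 8 rose, with a median of -0.27, where 53.6% of all rows were lower. By function, 44 of 46 large subunit factors, 25 of 26 small subunit factors, 8 of 8 chaperones and assembly factors of the small nucleolar particles, 9 of 10 polymerase I initiation and nucleolar genes, 6 of 8 polymerase III initiation and repression genes, and 3 of 3 polymerase assembly genes fell. Of 5 genes of the Myc network and growth control 3 fell, near the share over all rows. The following were picked after their values were seen. Bop1, which helps process the large subunit RNA, changed by -0.63 from 176 TPM in Ctrl, the nucleolar chaperone Nolc1 by -0.49 from 297 TPM, nucleolin (Ncl) by -0.34 from 1405 TPM, the polymerase I factors Rrn3 and Ubtf by -0.32 and -0.29, and nucleophosmin (Npm1) by -0.12 from 4261 TPM. Those that rose were Nop53 (0.24), Ddx24 (0.09), Esf1 (0.26), Taf1b (0.24), Snapc3 (0.19), the polymerase III repressor Maf1 (0.27), and Mnt (0.20) and Mxd1 (0.76), which compete with Myc for its partner Max. Mxi1 (-0.12) and Mga (-0.18), which bind Max as well, fell, as did Max itself (-0.12). Mxd1 was at 5.94 ± 0.141 TPM in Ctrl and 10.2 ± 0.694 TPM in cKO (SD, n = 3 each), and Snapc3 overlapped between the groups in TPM. Myc had no row.

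Other gene groups of the table are given beside the members. Over all rows, 53.6% were lower and 46.4% higher, with a median log2 fold change of -0.12. Of mitochondrial ribosomal proteins 24 of 24 fell, with a median of -0.24, and of spliceosome genes 81 of 82, with a median of -0.22. Cytosolic ribosomal proteins, the stable products that these factors assemble, went the other way: 36 of 38 rose, with a median of 0.10. Many of the latter have processed pseudogenes that can share reads. Cell cycle genes, another sign of growth, had 60 of 70 lower with a median of -0.21; their part in the members' decrease was not tested. These counts rest on rows chosen by the authors' test on the same libraries and give no test of a difference between the groups of genes.

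**Figure D4:**
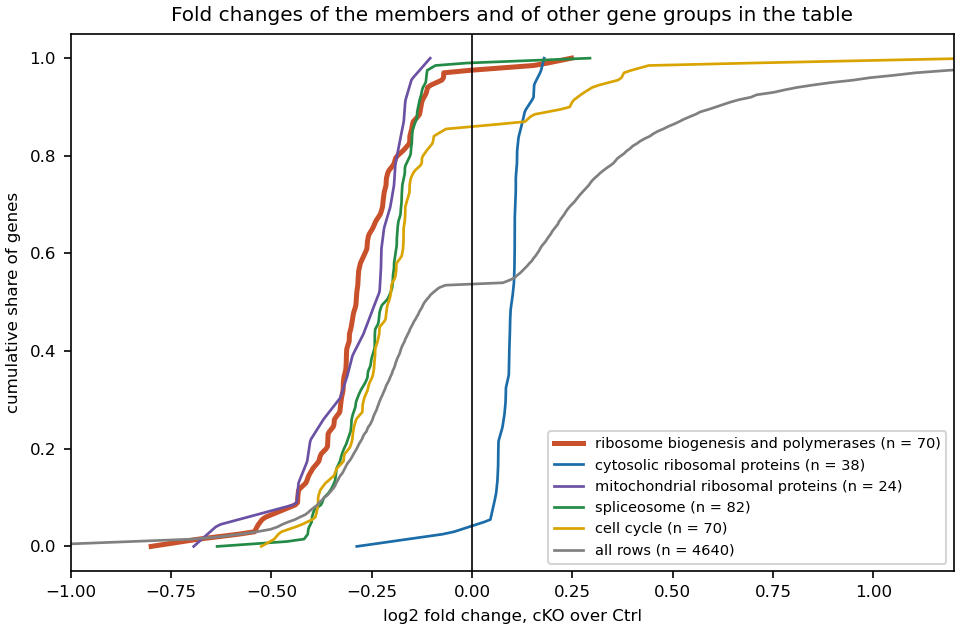
Cumulative share of genes (vertical axis) by log2 fold change (cKO over Ctrl, horizontal axis) for the 70 members, 4 other gene groups and all 4640 rows, the axis being limited to -1 to 1.2. The members lie left of 0 but for 2 genes, with a median of -0.29, and the 38 cytosolic ribosomal proteins right of it but for 2 genes, with a median of 0.10.

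Promoter sequences, 250 bases before to 50 after the transcript start, were in the RefSeq table (GRCm38.p6) for 57 of the 70 members. The E-box CACGTG, the motif bound by Myc and related factors, occurred in 12 of the 57 (21.1%), in 13.2% of 3823 rows with a promoter and in 8.09% of 27025 genes. CCGGAAG, a core of ETS factor motifs, read on both strands, occurred in 33.3% of the members, 21.2% of the rows and 9.93% of the genes. GGGCGG, on both strands, occurred in 63.2%, 70.3% and 38.2%, and TATAAA, on both strands, in 5.26%, 9.08% and 15.7%. A further motif, CTACANNTCCCAG on both strands, was defined from the Nop10 promoter after the members' promoters had been read. It occurred in 2.96% of the rows and 1.24% of the genes, and among the members in Nop10 and Polr1b, where it had been noticed, and in Rpp30 and Polr3gl; since the choice of motif fixed the first of these, no share of the members is compared. It resembles the known motif of ZNF143 and THAP11; a match is a description and not a binding site.

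The 250 bases before the start are shown for these 4 genes because they include Nop10 and Polr1b, which fell, beside Polr3gl, which rose; capitals mark the motif, and each sequence is given on the strand of its gene. Nop10 is at chr2:112261676-112261925 (plus strand), Polr1b at chr2:129100746-129100995 (plus strand), Rpp30 at chr19:36083466-36083715 (plus strand) and Polr3gl at chr3:96594182-96594431 (minus strand).
Nop10: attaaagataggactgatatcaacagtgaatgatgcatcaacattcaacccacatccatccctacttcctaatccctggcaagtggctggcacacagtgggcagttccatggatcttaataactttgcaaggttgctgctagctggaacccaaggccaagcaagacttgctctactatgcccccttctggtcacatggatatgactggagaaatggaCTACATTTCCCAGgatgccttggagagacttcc
Polr1b: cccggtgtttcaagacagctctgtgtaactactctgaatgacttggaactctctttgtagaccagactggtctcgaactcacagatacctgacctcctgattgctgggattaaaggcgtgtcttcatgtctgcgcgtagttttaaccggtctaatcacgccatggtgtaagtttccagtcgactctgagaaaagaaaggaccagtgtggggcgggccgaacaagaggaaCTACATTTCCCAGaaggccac
Rpp30: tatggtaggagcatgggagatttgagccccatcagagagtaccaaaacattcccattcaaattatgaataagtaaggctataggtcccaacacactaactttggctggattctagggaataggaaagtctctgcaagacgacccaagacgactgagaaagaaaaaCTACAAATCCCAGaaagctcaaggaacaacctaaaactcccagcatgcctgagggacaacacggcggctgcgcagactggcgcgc
Polr3gl: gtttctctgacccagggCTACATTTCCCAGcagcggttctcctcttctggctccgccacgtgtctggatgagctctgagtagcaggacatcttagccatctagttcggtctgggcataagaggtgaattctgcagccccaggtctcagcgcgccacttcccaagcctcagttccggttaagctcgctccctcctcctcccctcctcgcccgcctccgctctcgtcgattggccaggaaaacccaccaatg
The motif began 33 bases before the start in Nop10, 21 in Polr1b, 85 in Rpp30 and 233 in Polr3gl. The match read CTACATTTCCCAG in Nop10, Polr1b and Polr3gl and CTACAAATCCCAG in Rpp30. The changes beside these promoters were -0.69, -0.40, -0.38 and 0.16, so that members sharing the motif moved in both directions.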

How the data were processed

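Messenger RNA of 3 Ctrl and 3 cKO libraries was analysed from the authors' deposited table, with groups taken from the sample titles. The submitters' processing notes name DESeq2 1.34.0, the build mm39 and Bowtie2 2.4.5, and no source used here names the tool that counted reads. The deposited expected counts are estimates without normalization, 11.1% of them not whole. The deposited FPKM and TPM are scaled by the authors for gene length and library size. The deposited normalized counts, a signal, are rounded-up counts over a size factor for each library, which held for 100% of values above 0 within 1e-06. The deposited log2 values, p-values and q-values are the authors' comparison, and the q-values equal an adjustment over 15835 genes. Columns of values of other samples numbered 0.

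Expected counts were rounded and fitted with edgeR 4.0.16 (R 4.3.3), quasi-likelihood F-test, filterByExpr (16 rows removed), library sizes proportional to the authors' size factors, and Benjamini-Hochberg adjustment over 15835 genes, rows without an entry taken as larger p-values. The authors' factors were chosen over TMM because the rows were selected on the comparison. An adjusted p below 0.05 was a call. For members near that threshold the edgeR value was smaller than the authors' q, as for Polr3gl (0.0031 against 0.0423) and Polr2a (0.0117 against 0.0482). SE is the absolute log2 fold change over the square root of F. The fit was tested on simulated counts in which most genes were unchanged. The rows here were all called by the authors, so that test does not vouch for the calls made on them. Depth is known only for the rows. The median chi-square between libraries of a group was 0.574 to 0.797 (0.455 from counting alone) and the mean 1.31 to 2.18, so replicates differed somewhat beyond counting. The p-values rest on that spread, which was measured only on rows chosen by the authors' test. The labels call the replicates biological and name no animals, so whether the p-values measure spread between animals is not known. Alternatives used DESeq2 1.42.0, limma 3.58.1, other scalings, filters, rounding, a replicate block and leaving out each library. Summaries used NumPy 2.4.6, pandas 2.3.3 and SciPy 1.17.1 under Python 3.11.15, and plots matplotlib 3.10.9.

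Members, role lists and other lists were chosen with earlier results of these data known. The naming rule took all particle and polymerase members and the 8 lowest and 8 highest processing factors; the remaining processing factors are named as well. The values of 1 polymerase member are not reported here, and it stays in the counts, sums and medians. Printed coordinates are those of RefSeq promoters on GRCm38.p6 and were not mixed with mm39. The promoter motif shared by Nop10 and Polr1b was defined from 13 bases of the Nop10 promoter after the sequences were seen.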

Additional observations from a re-analysis of the deposited data

How the results depend on the processing

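Over 19 alternative settings the 2 members that rose stayed higher, and 68 members were lower with no filter, at least 1 CPM in 3 libraries, DESeq2, limma-voom, robust dispersion, counts rounded up and adjustment over the rows alone. Those settings keep the authors' size factors and use rows that the authors' test had already called. Their agreement was therefore largely fixed beforehand. Scaling moved most values. With TMM factors from the rows 64 members were lower, with RLE 57, with upper-quartile 55, and on the log2(FPKM + 1) and log2(FPKM + 0.1) scales 62 each. Over all rows the lower share was 50.2% with TMM, 40.3% with RLE and 37.3% with upper-quartile factors. On the FPKM scales 2186 and 2181 rows were lower, in the same order. Polr2a and Csnk2a1 turned to 0.0079 and 0.0070 with RLE and to 0.018 and 0.017 with upper-quartile factors. In the order TMM, RLE, upper quartile, log2(FPKM + 1) and log2(FPKM + 0.1), the median of all members was -0.25, -0.21, -0.20 (-0.201), -0.25 and -0.25, of box C/D -0.26, -0.23, -0.22, -0.27 and -0.27, of box H/ACA -0.36, -0.32, -0.31, -0.36 and -0.36, of polymerase I -0.30 (-0.299), -0.26, -0.25, -0.30 (-0.297) and -0.31, of polymerase II -0.12, -0.081, -0.071, -0.12 and -0.13, of polymerase III -0.21, -0.18, -0.17, -0.21 and -0.21, of processing factors -0.25, -0.21, -0.20 (-0.199), -0.25 and -0.25, and of all rows -0.077, -0.040, -0.030, -0.081 and -0.082. In each of these settings 2 polymerase II members were lower. These factors shift the median of all rows up by 0.042 (TMM), 0.078 (RLE) and 0.088 (upper quartile), by construction; the cause of the FPKM differences was not tested.

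Leaving out each library in turn left 66 to 68 members lower, beside 2455 to 2476 of all rows. Medians were -0.29 to -0.28 for all members, -0.30 (-0.2998) to -0.28 for processing factors, -0.44 to -0.27 for the shared subunits, -0.28 to -0.24 for polymerase III and -0.12 to -0.11 for all rows. With the replicate block 68 members were lower and 2 higher, and 2486 rows were lower and 2152 higher. Deviations of same-numbered libraries correlated at -0.056 to 0.073, and those of differently numbered ones at -0.084 to 0.093. These values show no pairing by number, but with 3 libraries a group they cannot exclude it. Precision is limited by 3 libraries a group and by a table that holds called genes alone.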
